A study of Mus musculus with 15 samples.

Results

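The 37 nuclear genes described here encode subunits of complex I, the NADH:ubiquinone oxidoreductase of the mitochondrial inner membrane. They were chosen by name, as the protein-coding rows whose symbol is Nduf followed by a, b, c, s or v and a number, together with Ndufab1, and they were 37 of 39331 rows and of 22019 protein-coding rows in the count table. The rule itself uses names and no measured value. By place in the enzyme they fall into 8 genes of the NADH-oxidizing N module, 8 of the quinone-reducing Q module, 9 of the proximal and 10 of the distal membrane arm. The acyl carrier protein gene Ndufab1 and Ndufa4, whose product is now regarded as a part of complex IV despite its name, make up the rest. Ndufa6, Ndufa7 and Ndufa9 are placed in the Q module here, and their assignment varies between sources.

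Every library came from left ventricular tissue of a C57BL/6 heart with an experimental myocardial infarction, and no uninjured heart was analysed here. Neonatal hearts that had received adult T cells gave 4 libraries and neonatal hearts without them gave 4. Adult hearts with adult T cells gave 4 libraries and adult hearts without gave 3. Throughout, hearts given T cells are called recipients and the others controls, and libraries keep the numbers of their titles. The labels state collection 36 h after infarction, in a sentence that speaks of neonatal hearts only, and the ages in days, the cell dose and its route are not given in the sources used here. Nothing in the labels says that libraries of a group came from separate animals, so p-values measure the spread between these libraries, which may be in part technical.

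Complex I passes electrons from NADH to ubiquinone and uses the energy released to pump protons. Its peripheral arm carries a flavin and a chain of iron-sulfur clusters, and its membrane arm holds the proton pumps. The pumps themselves are encoded by mitochondrial DNA, whereas the core proteins of the peripheral arm and all accessory subunits are nuclear and must be imported. The heart is among the tissues richest in the enzyme, and around birth heart muscle turns from glycolysis towards fatty acid oxidation, which feeds NADH to it.

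Library totals ran from 21871617 to 34302786 counts over the 15 libraries, and single members held between 1272 and 22791 counts per library. All 37 genes passed the filter on low counts. Levels are given as counts per 1000000 (CPM) scaled by edgeR's TMM factors. Among the neonatal libraries, control library 8 stood apart on the first principal component of all genes, at 53.0 against -21.1 to 9.60 for the others, and it was the highest of the 8 neonatal libraries for 36 of the 37 members. Among the 7 adult libraries, recipient library 2 was the highest for 34 members and control library 7 the lowest for 33. Markers of heart muscle summed to between 41656 and 76418 CPM in every library. Of 7 brown fat markers, 4 did not pass the filter, and Ucp1, the defining gene of that tissue, had no count in 7 of the 15 libraries. The 3 that passed were Cidea, Dio2 and Fabp4. Cidea rose in adult recipients against adult controls. Cidea and Fabp4 fell in neonatal against adult recipients. These were the directions of the members. Dio2 went the other way in both comparisons without passing the test. Its mean was 6.349 CPM in adult recipients, 7.097 CPM in adult controls and 7.996 CPM in neonatal recipients. The part of these markers in the differences of the members was not tested.

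Per kilobase of transcript, levels in adult control hearts spread widely between members. Ndufa4 stood highest, at 1046 ± 79.6 CPM per kilobase (SD, n = 3), and the distal arm subunits Ndufb8, Ndufb9 and Ndufb10 followed with 970.1 ± 92.9, 748 ± 41.2 and 586 ± 31.1. Ndufa4 and Ndufb8 did not differ beyond their spread. The lowest were Ndufab1 at 50.4 ± 2.40, Ndufb4 at 77.4 ± 10.4 and Ndufs4 at 103 ± 11.1 CPM per kilobase. Ndufb4 shares sequence with the gene copies Ndufb4b and Ndufb4c, so its own level is uncertain. In neonatal control hearts Ndufb8 came first, at 778 ± 119.6 CPM per kilobase (SD, n = 4), and Ndufa4 second, at 733 ± 121, again within their spread. Ndufab1 was last at both ages. These levels divide by 1 annotated transcript per gene and so depend on which isoform the heart uses. The gene length deposited with the counts equals the whole gene span for 100% of genes. Whether reads in introns were counted is not given in the sources used here.

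**Figure D1:**
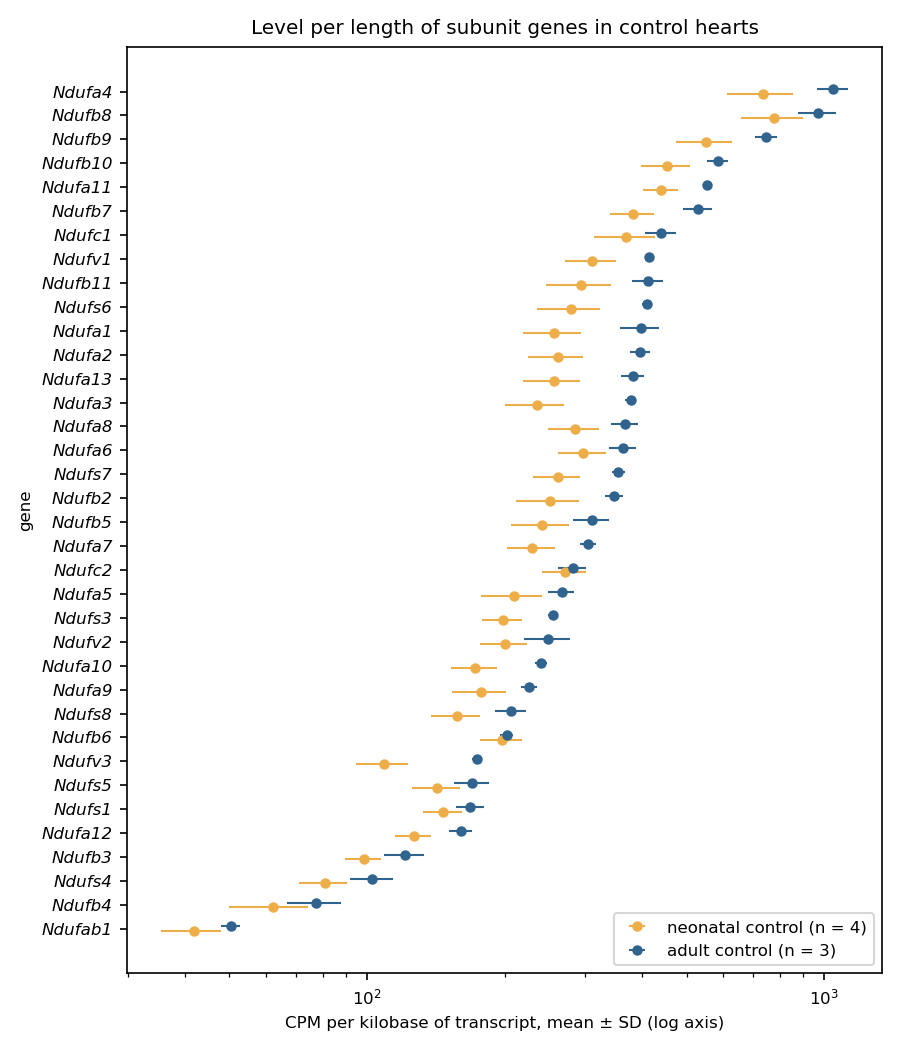
Level of 36 of the genes per kilobase of transcript (x axis, CPM per kilobase, log scale) in neonatal control hearts (orange, n = 4) and adult control hearts (blue, n = 3), points with bars for mean ± SD, sorted by the adult level. Ndufa4 and Ndufb8 lead at both ages, Ndufab1 is last, and the adult mean lies to the right of the neonatal mean for every gene drawn.

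The comparison of neonatal with adult control hearts asked how complex I transcripts differ with age after infarction in the absence of transferred cells. Nearly the whole set was lower in the neonates. The sum over the 37 genes was 8618 ± 1103 CPM in neonatal controls (SD, n = 4) and 11392 ± 618 CPM in adult controls (SD, n = 3), and the ranges of 7621 to 10190 and 10683 to 11815 did not overlap. In the edgeR quasi-likelihood fit with Benjamini-Hochberg adjustment, which is used for every adjusted p below with a threshold of 0.05, 31 members fell and none rose, where 15.6% of the 16437 genes tested were lower and 30.9% differed in either direction. Log2 differences of single genes are given ± SE. The median log2 fold change (neonatal minus adult) was -0.36 over the members, with a range of -0.68 to -0.03, against 0.02 over all genes. For 24 members every neonatal control library lay below every adult control library, a separation found for 17.7% of all genes. In whole ventricle, fewer muscle cells and less RNA of these genes per cell cannot be told apart.

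In the N module, 7 of 8 members fell. Ndufv1 carries the flavin and the NADH site, and it had 505, 502, 607 and 449 CPM in neonatal controls 6, 7, 8 and 9 against 703, 678 and 679 CPM in adult controls 5, 6 and 7. Every neonatal value was below every adult value, and the log2 difference was -0.41 ± 0.093, adjusted p = 0.00280 by edgeR. The accessory subunit Ndufv3 showed one of the widest gaps, with 174, 167, 200.5 and 147 CPM in the neonates and 284, 272 and 271 CPM in the adults. These groups lay far apart, and the log2 difference was -0.68 ± 0.10, adjusted p = 8.73e-05 by edgeR. Ndufs6, a zinc-binding subunit where the N and Q modules meet, had 152, 156, 193 and 133 against 239.9, 231 and 228 CPM. Here too no neonatal value reached an adult one, at -0.56 ± 0.10, adjusted p = 5.96e-04 by edgeR. Ndufs1, the largest subunit and the holder of several iron-sulfur clusters, was the exception in this module. Its neonatal control values of 372, 363, 446 and 383 CPM and adult values of 452, 476 and 416 CPM overlapped through neonatal library 8, and its difference of -0.20 ± 0.089 did not pass the test (adjusted p = 0.101, edgeR).

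All 8 Q module members fell, with a median log2 difference of -0.38. The core subunit Ndufs7, beside the ubiquinone site, had 201, 189, 228 and 174 CPM in neonatal controls and 277, 259 and 270.5 CPM in adult controls. Every neonatal value was below every adult value, and the log2 difference was -0.44 ± 0.097, adjusted p = 0.00242 by edgeR. The iron-sulfur protein Ndufs8 (-0.39 ± 0.10) and Ndufs3 (-0.36 ± 0.086) fell by similar amounts, as did the N module flavoprotein partner Ndufv2 (-0.32 ± 0.11). Counted over the peripheral arm's nuclear core proteins, 6 of 7 fell, all except Ndufs1.

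In the proximal membrane arm 7 of 9 members fell, and it held both the largest difference and one of the smallest. Ndufa3 had 113, 116, 148 and 107 CPM in neonatal controls and 191, 201 and 191 CPM in adult controls. The neonatal values stayed well below the adult ones, and the log2 difference was -0.68 ± 0.11, adjusted p = 1.30e-04 by edgeR. Ndufa1 on the X chromosome (-0.63 ± 0.10, adjusted p = 2.44e-04) and Ndufa13, also known as GRIM-19 (-0.57 ± 0.099, adjusted p = 3.49e-04), came next in this arm by edgeR. Ndufc2 had 184, 173, 214 and 169 CPM in neonatal and 199.8, 201 and 177 CPM in adult controls. The groups overlapped, with neonatal library 8 above all adult controls, and the difference of -0.05 ± 0.10 did not pass (adjusted p = 0.723, edgeR). Its partner Ndufc1 stood at -0.25 ± 0.10 and did not pass either (adjusted p = 0.0648, edgeR).

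In the distal arm 8 of 10 members fell, led by Ndufb11 (-0.48 ± 0.11), Ndufb7 (-0.47 ± 0.096) and Ndufb2 (-0.47 ± 0.11). Ndufb6, with 132, 125, 148 and 115 CPM in neonatal and 133, 138 and 129 CPM in adult controls, showed the smallest difference of the 37, at -0.03 ± 0.091, adjusted p = 0.809 by edgeR. Its groups overlapped broadly. Ndufb4 (-0.32 ± 0.13, adjusted p = 0.0667) and Ndufab1 (-0.27 ± 0.12, adjusted p = 0.0969) also missed the threshold by edgeR, Ndufb4 with or without the reads of its copies. Ndufa4 fell by 0.51 on the log2 scale (SE 0.12, adjusted p = 0.00312, edgeR), from 638 ± 48.6 CPM in adult controls (SD, n = 3) to 447 ± 73.5 CPM in neonatal controls (SD, n = 4). Ndufs5, of the proximal arm, had a small but significant difference of -0.25 ± 0.093, adjusted p = 0.0444 by edgeR.

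Without neonatal control library 8, the highest neonatal library for 36 members, 35 of 37 members fell, with a median of -0.46. Markers of cell types also differed with age in these libraries. Of 10 heart muscle markers, 4 fell in neonatal controls and none rose, and their summed level was 44887 to 50754 CPM in neonatal against 56572 to 59229 CPM in adult controls. Of 10 macrophage markers, 6 rose and none fell, with sums of 243 to 783 against 207 to 282 CPM. Of 8 endothelial markers 5 fell and 1 rose, with a median of -0.40 and sums of 1094 to 1127 against 1419 to 1471 CPM. Of the 7 skeletal muscle markers tested 4 rose and 1 fell, with a median of 1.25 and sums of 1469 to 2086 against 2220.1 to 2451 CPM. Ckm, the 1 that fell, made up most of these sums, at 1488 ± 312 CPM in neonatal and 2177 ± 66.0 CPM in adult controls (SD). Some of the tested markers had very few reads in adults. Myh1 had 77 counts over the neonatal controls and 1 over the adult controls, and Actn3 had 46 and 9, so their differences are uncertain. Of 7 erythroid markers 1 rose and 1 fell, and of 8 fibroblast markers 1 rose and 2 fell. Over all genes 15.4% were higher and 15.6% lower, so the erythroid and fibroblast counts do not set these lists apart. The part of all these markers in the complex I difference was not tested.

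**Figure D2:**
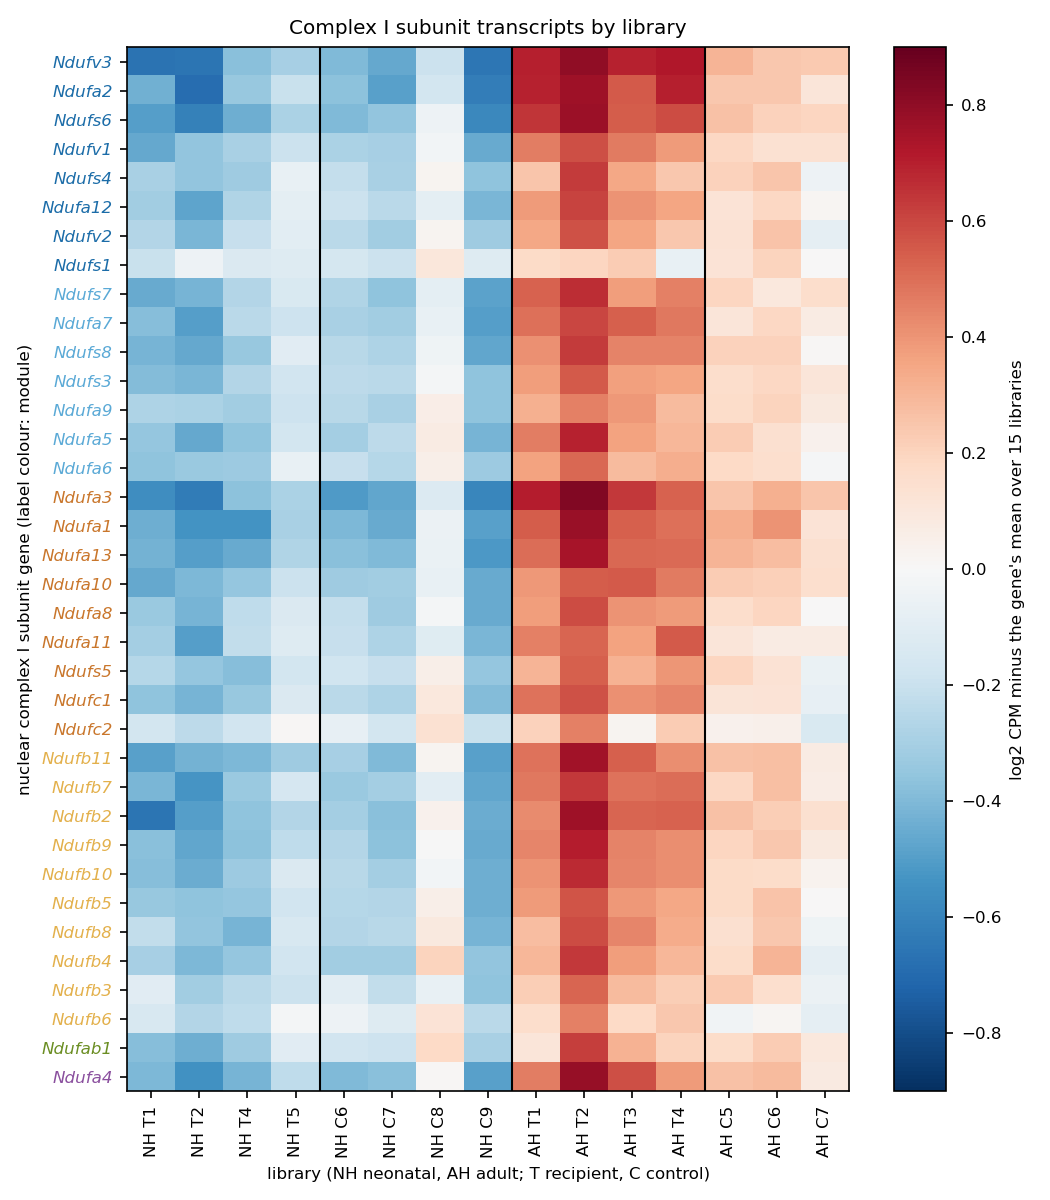
Each row is 1 of 36 of the genes, ordered by module (label colour) and by the age difference in controls, and each column 1 of the 15 libraries, named by age (NH neonatal, AH adult) and group (T recipient, C control). Colour gives the log2 CPM minus the gene's mean over the libraries. Adult recipients are the reddest block, neonatal libraries are blue for most genes, and neonatal control library 8 and adult recipient library 2 are the highest columns of their ages.

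Promoter sequence, mostly upstream of the start, was examined because the genes moved together in most cases. Motif counts of the members were set against those of other promoters. Members with wide age gaps and members that did not pass the age test were not compared, and the stretches printed are examples. RefSeq promoters of GRCm38.p6 (250 bases before to 50 bases after the start) were at hand for 33 of the 37 genes, and not, for example, for Ndufb9, Ndufs1 and Ndufa2. The 120 bases before the start are printed for Ndufv3, Ndufa3 and Ndufs6, which had wide age gaps, and for Ndufb6, Ndufc2 and Ndufb4, which did not pass the test in controls. Capitals mark letters of a searched motif.
Ndufv3, chr17:31519995-31520114, plus strand: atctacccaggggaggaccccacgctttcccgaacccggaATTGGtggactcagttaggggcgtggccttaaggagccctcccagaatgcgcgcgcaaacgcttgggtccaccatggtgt
Ndufa3, chr7:3617253-3617372, plus strand: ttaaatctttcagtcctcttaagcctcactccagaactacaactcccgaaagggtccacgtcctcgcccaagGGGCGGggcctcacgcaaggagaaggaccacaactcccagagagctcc
Ndufs6, chr13:73328483-73328602, minus strand: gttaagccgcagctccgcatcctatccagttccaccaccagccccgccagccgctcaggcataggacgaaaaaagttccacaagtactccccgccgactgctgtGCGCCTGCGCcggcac
Ndufb6, chr4:40279422-40279541, minus strand: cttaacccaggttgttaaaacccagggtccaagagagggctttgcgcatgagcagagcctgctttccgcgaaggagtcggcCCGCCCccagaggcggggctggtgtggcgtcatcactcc
Ndufc2, chr7:97399883-97400002, plus strand: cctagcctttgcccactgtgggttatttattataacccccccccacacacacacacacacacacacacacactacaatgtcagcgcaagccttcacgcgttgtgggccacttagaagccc
Ndufb4, chr16:37654369-37654488, minus strand: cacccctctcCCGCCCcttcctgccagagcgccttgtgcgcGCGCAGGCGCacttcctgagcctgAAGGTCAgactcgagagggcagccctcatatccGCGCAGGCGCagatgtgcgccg

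Motifs were searched as fixed letters on both strands of the 300 base window. The letters GCGCA, then any base, then GCGC, written for NRF1, the nuclear respiratory factor known for respiratory chain genes, were in 8 of 35 member promoters (22.9%) from 7 genes, in 4.60% of all 32851 promoters and in 6.50% of protein-coding ones. The capitals at the 3′ end of the Ndufs6 stretch and the repeated capitals in Ndufb4 are such matches. Ndufb4 had an age difference near the median of the members. The YY1 letters AAGATGGCG were in 5 of 35 member promoters (14.3%), 1.40% of all and 1.86% of protein-coding promoters. All 5 member matches began 22 to 35 bases after the start, so none was upstream of it. The ERR letters AAGGTCA, as in the middle of the Ndufb4 stretch, were in 3 of 35 member promoters (8.57%). They were in 4.72% of all and 4.03% of protein-coding promoters. The ETS letters CCGGAAG were in 11.4%, which was above the 8.86% of all promoters but not above the 11.7% of protein-coding ones. GGGCGG, written for SP1 and seen in Ndufa3 and Ndufb6, was in 45.7%, above the 35.7% of all promoters but not above the 46.9% of protein-coding ones. CCAAT, which Ndufv3 holds on the opposite strand, was in 28.6%, against 37.4% of all and 38.2% of protein-coding promoters. TATAAA was in 14.3%, against 13.6% and 12.5%. The Ndufc2 stretch holds none of these motifs. Member promoters had a median GC content of 59% against 56.7% for protein-coding promoters, and letters rich in G and C depend on it. A match is a run of letters and not a measured binding site.

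Among hearts that had received T cells, neonates again had the lower levels. All 37 members fell in neonatal against adult recipients, where 23.8% of all genes were lower, 26.9% higher and 50.7% differed in either direction, and the median log2 difference was -0.79 (range -1.22 to -0.26) against 0.03 over all genes. In 36 members the 4 neonatal recipients all lay below the 4 adult recipients, a pattern of 21.6% of all genes, while 45.4% separated the groups in either direction. Ndufs1 was the exception, since its adult recipient library 4 at 397 CPM was below neonatal recipient library 2 at 401 CPM.

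Ndufv3 had 145, 146, 177 and 187 CPM in neonatal recipients 1, 2, 4 and 5 against 374, 399, 372 and 378 CPM in adult recipients 1 to 4. Every adult value lay far above every neonatal one, and the log2 difference was -1.22 ± 0.095, adjusted p = 4.60e-08 by edgeR. Ndufa3 (-1.13 ± 0.100), Ndufs6 (-1.09 ± 0.097) and Ndufa2 (-1.08 ± 0.10) followed. The smallest differences were those of Ndufs1 (-0.26 ± 0.082, adjusted p = 0.0132), Ndufc2 (-0.38 ± 0.093, adjusted p = 0.00262) and Ndufb6 (-0.42 ± 0.085, adjusted p = 4.36e-04) by edgeR, which were also among the smallest in controls. Whether the age difference was larger in recipients than in controls is the same contrast as the difference of the T cell effects, reported after them. Of the heart muscle markers 9 of 10 fell and none rose, with sums of 41656 to 51317 CPM in neonatal and 67603 to 76418 CPM in adult recipients, and all 10 macrophage markers rose, with sums of 656 to 986 and 199 to 273 CPM. Of 8 endothelial markers 5 fell and 1 rose, with sums of 1024 to 1152 and 1438 to 1620.4 CPM. Of the 7 skeletal muscle markers tested 4 rose and 1 fell, with sums of 1313 to 1810.3 and 2854 to 3338 CPM. Most of these sums was Ckm, at 1343 ± 209 CPM in neonatal and 2837 ± 157 CPM in adult recipients (SD). Myh1 had 120 counts over the neonatal recipients and 9 over the adult recipients, and Actn3 had 46 and 17, so their differences rest on few reads. Of 7 erythroid markers 5 fell, of the 7 T cell markers tested 2 fell, and of 8 fibroblast markers 2 rose and 2 fell. Over all genes 26.9% were higher and 23.8% lower, so the T cell and fibroblast counts do not set these lists apart. The part of all these markers in the difference was not tested.

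Adult recipients were compared with adult controls to see what T cell transfer went with in a heart of the donor cells' own age. Complex I transcripts were higher in the recipients. The summed level was 14099 ± 1025 CPM in recipients (SD, n = 4) and 11392 ± 618 CPM in controls (SD, n = 3), with ranges of 13367 to 15612 and 10683 to 11815 that did not overlap. By edgeR 13 of 37 members rose and none fell, where 3.53% of all genes tested were higher, 5.03% lower and 8.55% differed in either direction. At an unadjusted p under 0.05 there were 35 members, against 27.3% of all genes in either direction. The median log2 difference was 0.32 (range 0.03 to 0.48) against -0.0021 over all genes, and for 30 members all recipients lay above all controls, as for 13.1% of all genes, while 25.1% of genes separated the groups in either direction. This comparison and the age comparison in controls share the adult control libraries.

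The N module had the most calls, with 5 of 8 members. Ndufv3 stood at 374, 399, 372 and 378 CPM in recipients 1 to 4 and 284, 272 and 271 CPM in controls 5 to 7. All recipients exceeded all controls, by a log2 difference of 0.47 ± 0.10, adjusted p = 0.0194 by edgeR. Ndufa2, an accessory subunit with a thioredoxin-like fold, had 319, 336, 289 and 321 against 233, 233 and 213 CPM. Its groups were apart as well, and the difference was the largest of the 37, at 0.48 ± 0.11, adjusted p = 0.0209 by edgeR. Ndufs6 (0.42 ± 0.10, adjusted p = 0.0257), Ndufa12 (0.33 ± 0.095, adjusted p = 0.0407) and Ndufv1 (0.32 ± 0.094, adjusted p = 0.0433) were the other calls by edgeR. In Ndufv1 the recipients had 848, 923, 852 and 805 CPM and the controls 703, 678 and 679 CPM, without overlap. Ndufs1, with 467, 475, 485 and 397 against 452, 476 and 416 CPM, overlapped and showed the smallest difference of all members, 0.03 ± 0.089, adjusted p = 0.885 by edgeR.

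In the Q module 3 of 8 members rose, the accessory subunit Ndufa7 (0.41 ± 0.092, adjusted p = 0.0206) and the core iron-sulfur proteins Ndufs7 (0.36 ± 0.099, adjusted p = 0.0346) and Ndufs8 (0.34 ± 0.10, adjusted p = 0.0454) by edgeR. Ndufa7 had 208, 225, 214 and 205 CPM in recipients and 159, 168 and 155 CPM in controls, which did not overlap. Ndufs3 had 312, 353, 311 and 308 against 268, 273 and 259.9 CPM. Its recipients were all above its controls, but the difference of 0.27 ± 0.086 did not pass (adjusted p = 0.0594, edgeR). With Ndufv1, 3 of the 7 nuclear core proteins rose.

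In the membrane arm, the proximal members Ndufa11 (0.39 ± 0.090, adjusted p = 0.0210), Ndufc1 (0.42 ± 0.10, adjusted p = 0.0232) and Ndufa3 (0.41 ± 0.11, adjusted p = 0.0309) rose by edgeR, 3 of 9. Ndufc1 had 187, 198, 177 and 180.3 CPM in recipients and 144, 145 and 126 CPM in controls. Its recipients were all above its controls. Of the 10 distal members, Ndufb7 (0.35 ± 0.097, adjusted p = 0.0367) and Ndufb10 (0.36 ± 0.10, adjusted p = 0.0377) rose by edgeR. Ndufb3 stood at 0.20 ± 0.093, adjusted p = 0.175, near the low end of the set by edgeR. Ndufa4 had 759, 947, 821 and 718 against 660.3, 671 and 582 CPM. All 4 recipients were above the controls, but recipient library 2 stood well above the rest and the difference of 0.35 ± 0.12 missed the threshold (adjusted p = 0.0717, edgeR). Ndufab1, at 168, 241, 194 and 179.8 against 176, 183 and 167 CPM, overlapped (0.16 ± 0.12, adjusted p = 0.427, edgeR).

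**Figure D3:**
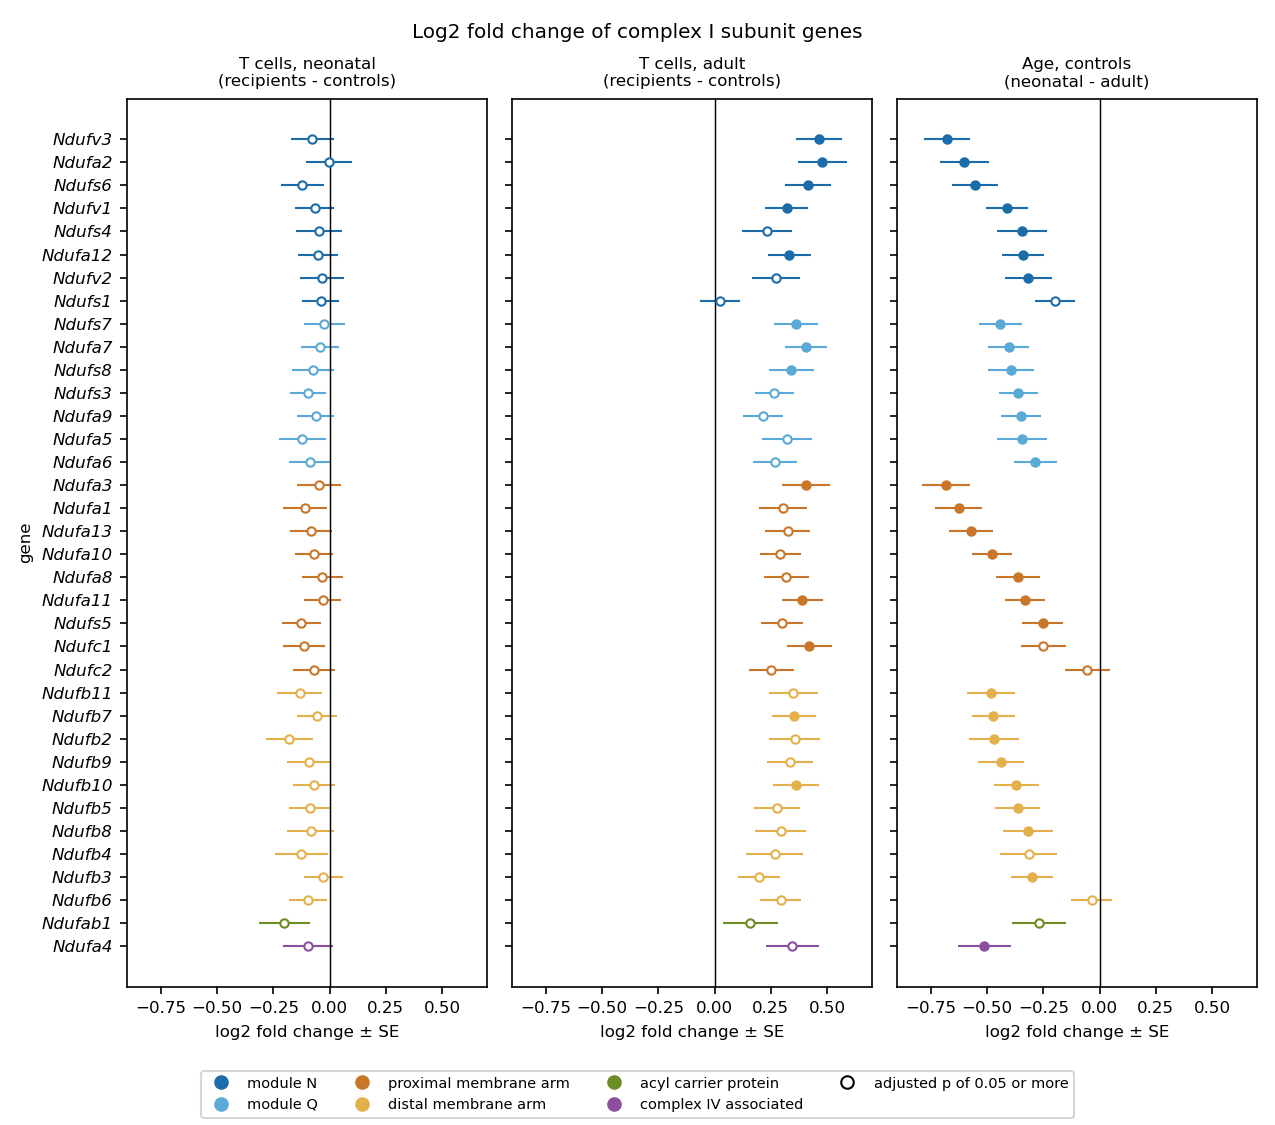
Log2 fold change ± SE of 36 of the genes (rows, coloured by module) for recipients minus controls in neonatal hearts (left), recipients minus controls in adult hearts (middle) and neonatal minus adult controls (right), filled where the edgeR adjusted p is under 0.05. The left panel has no filled point, the middle has 13, all to the right of 0, and the right has 30, all to the left of 0.

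The adult result depended on single libraries and on transcript length. Without recipient library 4, control library 5 or control library 6 no gene in the table passed, although 32 to 35 members kept an unadjusted p under 0.05, and leaving out recipient libraries 1, 2 or 3 or control library 7 left 7, 3, 8 and 4 members called, while the median stayed between 0.26 and 0.36. Over 15334 genes with a known length the log2 difference fell with transcript length (Spearman rho -0.45, across genes, which are not independent), and the members are short, with a median of 763 bases against 2865. Within the 37 the rho was -0.57. Within single libraries, the Spearman correlation across genes between length and a gene's deviation from its mean log2 level over the 15 libraries was -0.327 to -0.205 in adult recipients and 0.0420 to 0.128 in adult controls. With the length trend removed from each library, no member and no other gene passed by edgeR, 11 members had an unadjusted p under 0.05, and all 37 kept a positive sign with a median of 0.17 (range 0.02 to 0.37). Length-related differences between the libraries and T cell transfer cannot be told apart here. Other counts depended on the tool, with 28 members called by DESeq2 and 13 by limma voom. The split of calls over all genes moved too, from 580 higher and 826 lower by edgeR to 1177 higher and 1074 lower by DESeq2.

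**Figure D4:**
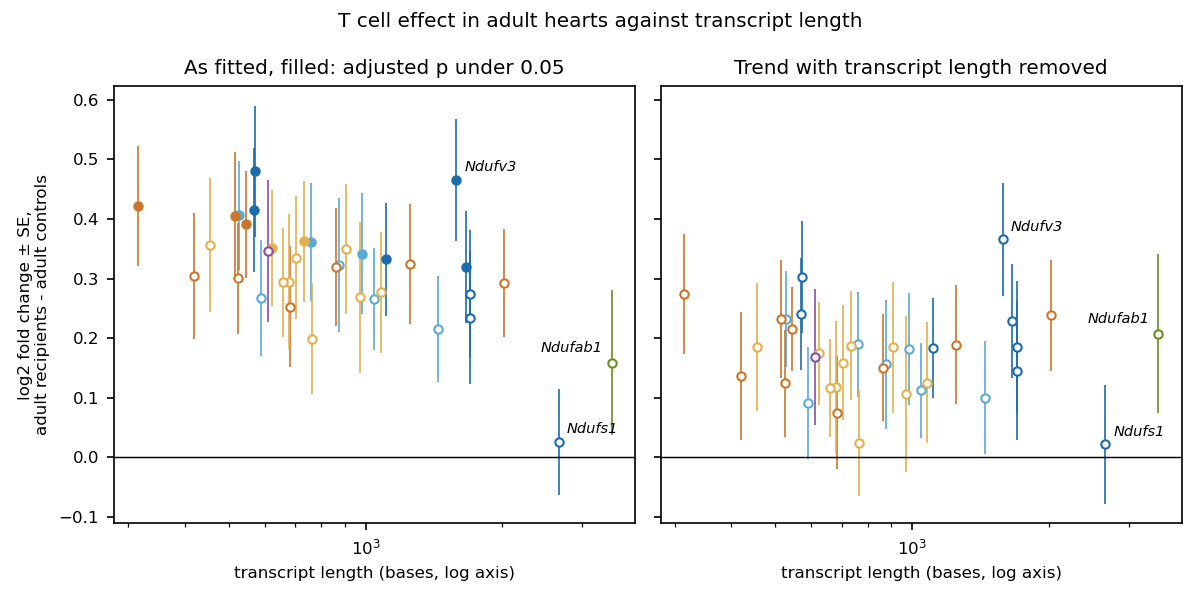
T cell difference in adult hearts (y axis, log2 fold change ± SE, recipients minus controls) of 36 of the genes against transcript length (x axis, bases, log scale), as fitted (left; filled points have an edgeR adjusted p under 0.05) and with the trend with length removed (right), colours as in the module plot. Points on the left tend downwards with length, and on the right none is filled but all lie above 0.

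Heart muscle markers also summed higher in adult recipients, at 67603 to 76418 CPM against 56572 to 59229 CPM in adult controls, and 3 of 10 rose, Actc1, Tnnc1 and Myl2, where 3.53% of all genes were higher. Of the 10 markers 2 went the other way without passing the test. These were Ryr2, at 510 ± 35.3 CPM in recipients and 633 ± 22.9 in controls, and Pln, at 3622 ± 624 and 3896 ± 531 CPM (SD). Erythroid markers summed to 4941 to 6999.7 against 3836 to 4087 CPM, with none of 7 past the test. Skeletal muscle markers summed to 2854 to 3338 against 2220.1 to 2451 CPM, with none of the 7 that were tested past it and the fast myosin genes Myh2 and Myh4 below the filter. Most of that sum was Ckm alone, at 2837 ± 157 CPM in adult recipients and 2177 ± 66.0 CPM in adult controls (SD). T cell markers summed to only 4.85 to 6.92 against 2.88 to 4.23 CPM, with 1 of 7 tested higher and Cd3e and Cd8a below the filter. The part of these markers in the complex I difference was not tested.

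In neonatal hearts, recipients and controls were compared to see what adult T cells went with in the young heart. No member passed the test in either direction, and none of the 16437 genes did (0% called). No member had an unadjusted p under 0.05 by edgeR, against 513 genes (3.12%) in the table, and DESeq2 and limma voom called none either. The log2 differences (recipients minus controls) were negative for all 37 members, with a median of -0.07 (range -0.20 to -0.0024) against -0.00017 over all genes, and SEs ran from 0.080 to 0.12. No member separated the groups, as did 1.36% of all genes, 0.736% with the recipients lower. The summed levels of 8185 ± 593 CPM in recipients and 8618 ± 1103 CPM in controls (SD, n = 4 each) overlapped.

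The lowest differences belonged to Ndufab1 (-0.20 ± 0.11, adjusted p = 0.999) and Ndufb2 (-0.18 ± 0.10, adjusted p = 0.999) by edgeR. Ndufab1 had 119.8, 115, 125 and 146 CPM in neonatal recipients 1, 2, 4 and 5 and 139, 138, 177 and 128 CPM in neonatal controls 6 to 9. The groups overlapped, and control library 8 was far above the rest. The core subunit Ndufv1 had 447, 482, 503 and 539.6 against 505, 502, 607 and 449 CPM. Its recipients all lay inside the range of the controls or just below it, at -0.07 ± 0.087. Ndufs1 had 360.4, 401, 379 and 382 against 372, 363, 446 and 383 CPM, again with overlap and with control library 8 highest. Without control library 8 the sign did not hold, since 22 of 37 members were then positive, with a median of 0.0048 (range -0.10 to 0.08). Library 8 also had the lowest macrophage marker sum of the neonatal libraries, 243 CPM. Neonatal controls 6, 7 and 9 had 783, 481 and 429 CPM, and neonatal recipients had 656 to 986 CPM. All 10 macrophage markers were positive, with a median of 0.58, or 0.35 without library 8, and none passed the test. T cell markers summed to 2.73 to 4.49 CPM in neonatal recipients and 2.71 to 4.82 CPM in neonatal controls, with none of the 7 tested past the test.

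Whether the T cell difference itself differed between the ages was tested as an interaction. No member passed by edgeR, and no gene in the table did (0% called), with a smallest adjusted p of 0.182 over the members. At an unadjusted p under 0.05 there were 34 members, against 15.3% of all genes, and limma voom called none while DESeq2 called 5 members among 117 genes. All 37 estimates (neonatal minus adult T cell difference) were negative, with a median of -0.39 (range -0.54 to -0.06) against 0.0075 over all genes. Ndufv3 had -0.54 ± 0.14 and Ndufs1 -0.06 ± 0.12. With the length trend removed the median was -0.25 and 16 members had an unadjusted p under 0.05. A T cell difference of another size in neonatal than in adult hearts was thus not shown for any single member by the edgeR test.

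Of the 7 core subunits encoded by mitochondrial DNA, 3 were lower in adult recipients than in adult controls, as were 5.03% of all genes. By edgeR, ND4L (-1.18 ± 0.23, adjusted p = 0.0181), ND5 (-0.78 ± 0.21, adjusted p = 0.0385) and ND4 (-0.49 ± 0.15, adjusted p = 0.0450) fell, and none rose. ND1 (-0.20 ± 0.14), ND2 (-0.41 ± 0.15), ND3 (0.17 ± 0.14) and ND6 (0.21 ± 0.47) did not pass. Their summed level was 50835 ± 9842 CPM in adult recipients (SD, n = 4) and 68878 ± 8672 CPM in adult controls (SD, n = 3). The lowest adult control (59673 CPM) and the highest recipient (59792 CPM) were nearly equal. The ratio of mitochondrial to nuclear complex I counts was 3.59 ± 0.551 in adult recipients, with a range of 2.91 to 4.20, and 6.03 ± 0.462 in adult controls, with a range of 5.59 to 6.51 (SD). The ratios did not overlap. With the length trend removed the 3 calls were lost, at adjusted p = 0.0618 for ND4L, 0.0796 for ND5 and 0.0878 for ND4 by edgeR. The mitochondrial genes had no matched transcript length, so no trend was removed from them and their log2 differences stayed the same. Their adjusted p moved only through the refit of the other genes.

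In the age comparison of controls, nuclear and mitochondrial subunits were both lower in neonates. There 6 of the 7 mitochondrial genes fell, where 15.6% of all genes were lower, with a median of -0.77 on the log2 scale. ND4 stood at -0.85 ± 0.15, adjusted p = 3.27e-04 by edgeR. In neonatal against adult recipients 4 of the 7 fell, where 23.8% of all genes were lower and 50.7% differed in either direction. The ratio was 4.78 ± 0.655 in neonatal controls and 4.85 ± 0.778 in neonatal recipients (SD, n = 4 each), and no mitochondrial gene passed the test between those groups. Mitochondrial reads depend on the capture of transcripts by oligo-dT, and ND6, on the other strand of the mitochondrial DNA, carries little or no poly(A) tail.

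**Figure D5:**
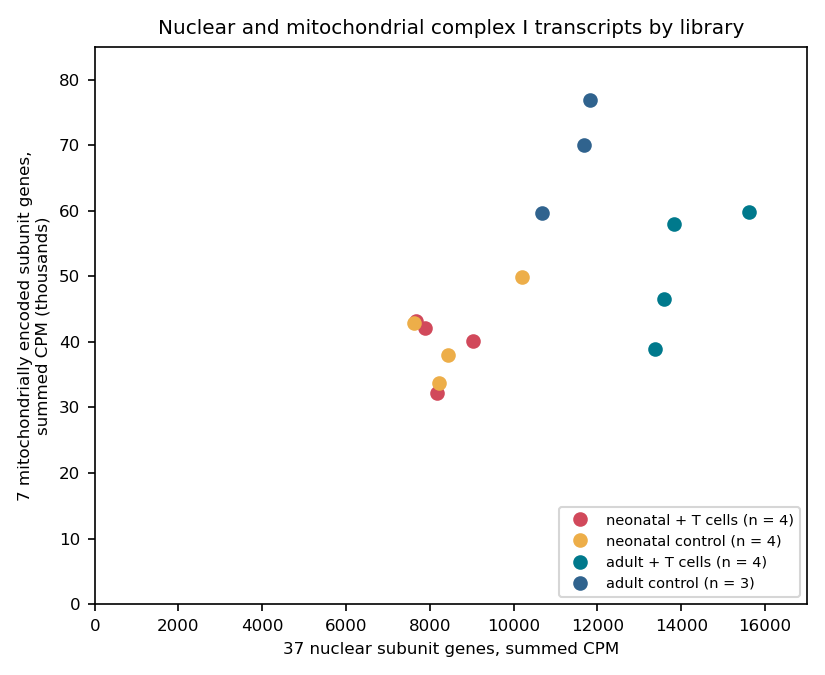
Each point is 1 of the 15 libraries, with the summed CPM of the 37 nuclear subunit genes on the x axis and of the 7 mitochondrially encoded subunit genes, in units of 1000 CPM, on the y axis. Adult recipients lie to the right of adult controls and mostly below them, and the neonatal libraries of both groups are mixed at the lower left.

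Other genes of the pathway were compared as fixed lists. Of 18 complex I assembly factors, which build the enzyme but do not remain in it, 3 rose in adult recipients, Dmac1 (0.37 ± 0.084, adjusted p = 0.0206), Ndufaf8 (0.39 ± 0.11, adjusted p = 0.0385) and Ndufaf1 (0.27 ± 0.082, adjusted p = 0.0497) by edgeR, and none fell. Of all genes, 3.53% were higher in adult recipients. In neonatal controls against adult controls 3 fell, Ecsit (-0.32 ± 0.069, adjusted p = 0.00217), Foxred1 and Dmac2 by edgeR, a share near the 15.6% of all genes that were lower, with a median of -0.09 over the list where the subunits had -0.36. In recipients 12 fell, where 23.8% of all genes were lower, among them Ndufaf8 (-0.86 ± 0.10) and Ecsit (-0.57 ± 0.065). Of 9 complex III subunits, 7 fell in neonatal controls and all 9 in neonatal recipients, and 3 rose in adult recipients, Uqcrc1, Uqcrq and Uqcr10. Of the 4 complex II subunits 3 fell in neonatal controls and all in neonatal recipients, and none passed in adult recipients. Ndufa4l2, a relative of Ndufa4 known as a hypoxia-induced gene, rose in adult recipients (0.39 ± 0.082, adjusted p = 0.0181) and fell in neonatal controls (-0.59 ± 0.081, adjusted p = 4.45e-05) by edgeR.

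Of 11 listed regulators of mitochondrial gene expression, 3 fell in adult recipients, the nuclear receptor Esrrg (-0.56 ± 0.12, adjusted p = 0.0198), the coactivator Ppargc1b (-0.41 ± 0.12, adjusted p = 0.0446) and Gabpa (-0.38 ± 0.11, adjusted p = 0.0483), a subunit of the ETS factor also called NRF2, by edgeR, and none rose. Of all genes, 5.03% were lower in adult recipients. In neonatal against adult controls the muscle-specific Perm1 (-0.46 ± 0.091, adjusted p = 0.00102), Esrra (-0.37 ± 0.086, adjusted p = 0.00333) and Ppargc1b (-0.34 ± 0.12, adjusted p = 0.0406) fell by edgeR, where 15.6% of all genes were lower. In neonatal against adult recipients Perm1 (-0.62 ± 0.085) and Esrra (-0.58 ± 0.081) fell, while Esrrg (0.63 ± 0.12), Gabpa (0.33 ± 0.11) and Yy1 (0.17 ± 0.061) rose. Over all genes 23.8% were lower and 26.9% higher there, so these counts do not set the list apart. With the length trend removed, Yy1 turned to -0.07 and Gabpa stood at 0.12, neither past the test, and the list had 1 member higher, Esrrg (0.42), and 3 lower, Perm1, Esrra and Tfam. None of these lists had a member past the test between neonatal recipients and controls, and with the length trend removed none kept a call in adult recipients, where no gene passed.

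Across the 15 libraries the members' log2 levels ran closely together, with a median pairwise Pearson r of 0.973, which includes the differences between the groups. Taking each library's deviation from its group mean, the median r was still 0.860, with all genes sharing each library's scaling. Ndufb10 followed the mean of the other members most closely (r = 0.989) and Ndufs1 least (r = 0.555), followed by Ndufa11 (0.734) and Ndufb3 (0.743). These are descriptions over 15 libraries that share preparation and scaling. Of the members the results turned on, Ndufv3 lies on chromosome 17, 31520115 to 31531326, Ndufa3 on chromosome 7, 3617347 to 3620165, Ndufs6 on chromosome 13, 73319876 to 73328482, Ndufs1 on chromosome 1, 63143592 to 63176822 and Ndufb6 on chromosome 4, 40270591 to 40279421 (GRCm38.p6). Some members overlap a gene on the opposite strand, such as Ndufa1 with Rnf113a1, Ndufa2 with Tmco6, Ndufa13 with Tssk6, Ndufb11 with Rbm10 and Ndufs1 with Ino80dos. Whether the authors' counting used strand is not given in the sources used here, so reads of such pairs may not have been told apart.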

How the data were processed

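RNA was purified with a column kit and libraries were made with a stranded oligo-dT kit, per the labels' protocols. The authors deposited 1 table of expected counts (estimated counts per gene, 61.1% of the non-zero values whole). The submitters' processing notes name bcl2fastq 2.20.0.422, cutadapt 2.5, STAR 2.7.2b, featureCounts 1.6.4, DESeq2 1.24.0 and the build GRCm38.p6. How fractions of reads were assigned and whether strand was used are not given in the sources used here.

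Counts were rounded and groups taken from the titles. Genes were kept by filterByExpr (minimum count 10, total 15), which left 16437, scaled by TMM and fitted over all 15 libraries with edgeR 4.0.16 (R 4.3.3), with robust quasi-likelihood dispersion, 1 coefficient per group and Benjamini-Hochberg adjustment over all genes at 0.05. The block on replicate number was not part of this fit. Alternatives were DESeq2 1.42.0, limma 3.58.1 voom, RLE scaling, no filter, only the groups compared, single libraries left out, and removal of a trend with transcript length (natural spline, 5 df, within each library; GENCODE M21 lengths for all 37 members). No library pair was a duplicate, with at most 2.23% of genes at equal counts. The fit was also run on simulated counts with known changes. These were drawn gene by gene, without outlying libraries or a length trend, so they cannot show how the fit handles either. Named genes were the 7 nuclear core subunits, the 4 largest, 4 smallest and 4 most significant differences of each comparison, Ndufa4, Ndufab1 and the most significant genes of the other lists. The members and lists were chosen with earlier results of these data known. The values of 1 member are not reported here singly, and it is not drawn.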

Additional observations from a re-analysis of the deposited data

Results flagged for a closer look

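In 13 of 111 checks of 1 gene in 1 group of 4 libraries (11.7%), the highest library lay further from the others than Dixon's 95% limit allows. Chance flags about 1 in 20 groups, and since the members rise and fall together within libraries these checks are not independent. Adult recipient library 2 accounted for 9 of the 13. There Ndufa8 had 436 CPM against 376 to 384 in the other adult recipients, Ndufs3 353 CPM against 308 to 312, and Ndufa13 671 CPM against 568 to 575. Ndufb7 had 455 CPM against 406 to 413, Ndufa12 252 CPM against 211 to 218 and Ndufb9 761 CPM against 624 to 637. Ndufb10 had 626 CPM against 519.5 to 534, Ndufs8 284 CPM against 245 to 251 and Ndufa1 233 CPM against 192 to 198. Without this library 3 members rose in adult recipients rather than 13.

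Neonatal control library 8 was the high library for Ndufb4, with 78.2 CPM against 53.3 to 55.0 in the other neonatal controls, and for Ndufa1, with 131 CPM against 97.1 to 103. Neonatal recipient library 5 was the high library for Ndufb5, with 269 CPM against 235 to 239 in the other neonatal recipients, and for Ndufa6, with 189.6 CPM against 155 to 158. The adult controls, with 3 libraries, were too few for this check.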

How the results depend on the processing

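In adult hearts the number of members called higher was 28 with DESeq2, 20 with RLE scaling, 20 without mitochondrially encoded genes, 26 with only the groups compared and 0 with the length trend removed, which also moved the median from 0.32 to 0.17. With 1 library left out it ran from 0 to 8 and the median from 0.26 to 0.36. For the difference of the T cell effects, DESeq2 called 5 members, the median was -0.25 with the length trend removed, and with 1 library left out the count stayed 0 and the median ran from -0.45 to -0.33. In neonatal hearts the count stayed 0 in each such fit and the median ran from -0.13 to 0.0048, positive only without control library 8. With 1 library left out, 23 to 35 members were called lower with age in controls, with a median of -0.46 to -0.31, and 37 in recipients, with -0.84 to -0.74. Without control library 8, 22 of 37 members turned positive in neonatal hearts, Ndufb4 to 0.015. Ndufs1 in adult hearts turned to -0.0052 without recipient library 3 and -0.026 without control library 7, and Ndufb6 in the age difference of controls to 0.020 without neonatal control library 9. Over the libraries left out these 3 genes ran from -0.18 to 0.015, from -0.026 to 0.087 and from -0.10 to 0.020. The causes were not tested, beyond the fewer libraries. Adding the reads of Ndufb4b and Ndufb4c to Ndufb4, an alternative chosen after seeing the data, changed no call.

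Age groups share some replicate numbers. Nothing in the labels says that a number marks a pair, so the numbers were not taken to pair libraries. Deviations of libraries with the same number correlated at -0.07 to 0.31. Libraries with different numbers were not compared, so these values cannot decide whether the numbers mark pairs. The replicate block was fitted only to libraries with a number found at both ages. These were 6 and 7 in controls and 1, 2 and 4 in recipients. With the block, 33 members fell with age in controls and 36 in recipients (35 and 37 with the length trend removed as well). Among the libraries left out was the neonatal control that was highest for 36 members. These counts therefore cannot show what the block itself changed. Recipients and controls of 1 age share no number. In the age difference of recipients, the calls over all genes moved from 4420 higher and 3919 lower to 3245 higher and 4849 lower with the length trend removed. Depth limited no member, but groups of 3 and 4 libraries limit the precision. Without a known strand setting, overlapping genes are uncertain. The adult groups differ in how level relates to length, and no batch is labelled, so that this cannot be told apart from T cell transfer.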
